A study of Mus musculus with 6 samples.

Results

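The regions described here are weak ChIP-seq peaks of the heat shock transcription factor HSF1. They were listed in a single library, that of heat-shocked mouse striatal cells with wild-type huntingtin. Whether these regions mark HSF1 binding was not tested. They number 3740 of the 6577 regions obtained by merging the peaks of 4 HSF1 lists. They were chosen by 2 measured values of the deposited lists. All peaks of the region had to come from the heat-shocked wild-type library, and its highest peak score had to be under 300. Regions starting on chromosome 13 from 21 to 24 Mb, where peaks are packed closely, were left out. That removed 5 regions that otherwise met the rule, and the values by chromosome, window, class and distance below leave out the other regions of that stretch as well, although its shared regions still count as places to which a distance is measured. Each of the 3740 regions is 1 peak, and positions are on the mouse build mm9. They are called weak Q7-only regions below.

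HSF1 waits in unstressed cells as a monomer held by chaperones. Heat and misfolded proteins release it, and it assembles into trimers that bind heat shock elements, which are inverted repeats of a GAA unit, and activates chaperone genes. It also binds many places away from chaperone genes after heat shock, and in ChIP-seq these range from tall peaks to sites that barely clear the peak caller's limit. Huntingtin with an expanded polyglutamine tract is the cause of Huntington's disease, in which neurons of the striatum are lost, and HSF1 activity has been studied there because chaperones act on aggregating proteins.

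HSF1 was precipitated in STHdhQ7/Q7 cells, which carry wild-type huntingtin (Q7), and in STHdhQ111/Q111 cells, which carry the knocked-in expanded form (Q111). Both are striatal lines from embryonic mice, grown at 33 °C in medium with G418, and each was sampled untreated and after 6 hours at 42 °C. The series has 6 samples, of which 4 are HSF1 libraries, 1 for each line and temperature. The other 2 are control IgG libraries of untreated cells at 33 °C, which were not analysed here. The lists held 260 (Q7) and 292 (Q111) peaks at 33 °C, and 6173 (Q7) and 2161 (Q111) peaks at 42 °C. With 1 library per group there is no replicate error and no test between lines or temperatures, and each genotype is represented by 1 line, so genotype, line and library cannot be told apart. Read depth is unknown, and whether a weak site enters a list depends on depth. Intervals below are 95% intervals over regions, and cover counting error only.

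As a group, the weak Q7-only regions made up most of the heat shock list of Q7 cells. They were 60.6% of its peaks and 52.8% of the bases it covered, 1.73 Mb in all. Of the 6154 merged regions with a Q7 peak at 42 °C, 4380, or 71.2%, held no peak of another list, and 85.4% of these 4380 were weak Q7-only regions. The 71.2% is taken over all scores and is the background for the weak Q7-only regions. The 85.4% depends on the score limit and on the stretch of chromosome 13 left out. Neither is a separate finding about the weak Q7-only regions. A weak Q7-only region stood at best at rank 1948 of the Q7 list. Cut to its 2161 highest peaks, the length of the Q111 list at 42 °C, the Q7 list would end at a score of 267 and keep 149 of them. Among the 4012 Q7 peaks beyond that rank, 3591 or 89.5% were weak Q7-only regions. All peaks beyond that rank were under the score limit of the rule. The 89.5% therefore describes the choice as well, and is not a separate finding.

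Scores are the authors' peak scores and describe the choice. They ran from 90.03, the lowest of the Q7 list, to 299.95, with a median of 130 and quartiles of 107 and 178. The regions crowded at the bottom of this range. Of the 3740, 561 scored under 100, a further 977 under 120 and a further 796 under 150, which leaves 725 from 150 to 200, 424 from 200 to 250 and 257 from 250 to 300. The regions just inside the limit were chr16:95992499-95993027 (score 299.95), chr6:134155771-134156105 (score 299.52), chr16:8810838-8811397 (score 298.97), chr10:77729554-77730163 (score 298.91) and chr10:69407204-69407783 (score 298.64). Just outside it, the nearest Q7-only regions that were left out lay at chr19:40315382-40316018 (score 300.59), at chr11:21903993-21904628 (score 301.22), at chr8:87332528-87332853 (score 301.48), at chr15:66948269-66948984 (score 301.70) and at chr11:50065527-50066132 (score 301.96). The limit thus falls within a continuous run of scores, with no gap at 300. At the other end, the lowest scores belonged to regions at chr11:32266850-32267359 (90.03), chr2:92612749-92613197 (90.05), chr1:184473359-184473719 (90.06), chr10:74143230-74143553 (90.12) and chr12:88229108-88229534 (90.12).

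Weak Q7 peaks were seldom part of a region that Q111 cells also held at 42 °C, and the share fell with the score. Outside the chromosome 13 stretch, the Q7 list at 42 °C held 4197 peaks scored under 300. Of these, 3740 were weak Q7-only regions, 441 lay in a region shared with Q111 cells at 42 °C, and 16 overlapped a 33 °C peak but no Q111 peak at 42 °C. From 250 to 300, 83 of 340 Q7 peaks were shared, or 24.4% (20.1 to 29.2). From 150 to 200 it was 128 of 858, or 14.9% (12.7 to 17.5), and under 100 it was 21 of 583, or 3.602% (2.37 to 5.44). The rule used the same overlaps, so these shares describe the choice and are not a separate finding.

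**Figure D1:**
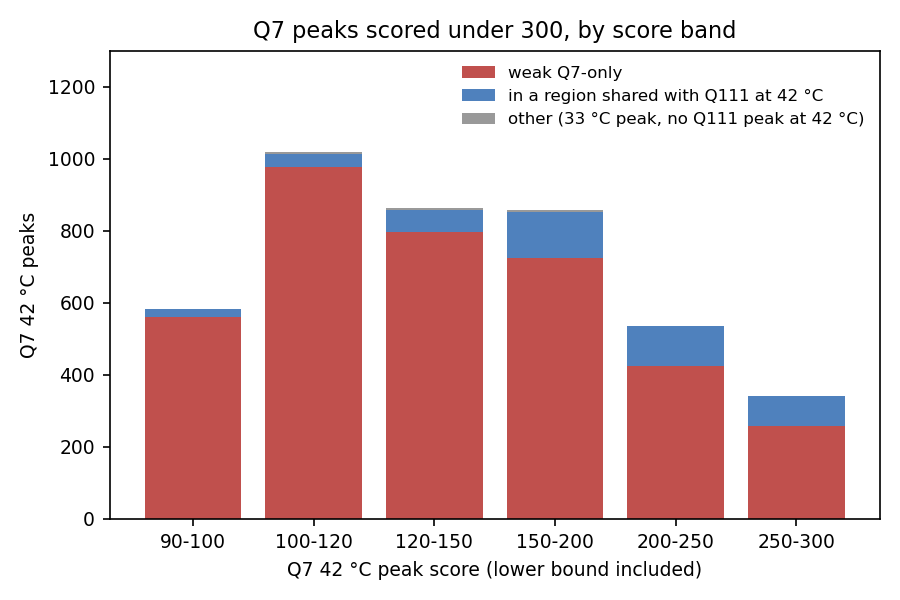
Number of Q7 peaks at 42 °C (vertical axis) in each band of peak score under 300 (horizontal axis, bands of unequal width), split into weak Q7-only regions, peaks in a region shared with Q111 cells at 42 °C, and other peaks. Weak Q7-only regions fill 561 of 583 peaks in the lowest band and 257 of 340 in the highest.

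Weak Q7-only regions were found on all 19 autosomes and on the X chromosome, at densities that differed several-fold. Densities are given per Mb of span, the stretch between the outermost regions of all 4 lists on a chromosome, which came to 2530 Mb in total. Over this span there were 1.48 weak Q7-only regions per Mb, 0.666 regions shared by both lines at 42 °C and 0.251 Q7-only regions scored 300 or more (strong Q7-only regions). Chromosome 15 had the highest density of weak Q7-only regions, 2.41 per Mb (239 regions), followed by chromosome 11 with 2.23 (264), chromosome 19 with 2.21 (128), chromosome 8 with 2.12 (271), chromosome 17 with 1.97 (168) and chromosome 10 with 1.96 (245). The lowest autosomal densities were 0.758 per Mb on chromosome 18 (66 regions) and 0.927 on chromosome 14 (107), and the X chromosome stood lower still, at 0.344 per Mb (55). The largest number of regions, 276, lay on chromosome 2, where the density was close to that of the whole, at 1.55 per Mb. The highest and the lowest autosome differed 3.18-fold.

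The chromosomes that were rich in weak Q7-only regions were mostly those rich in shared regions. Shared regions per Mb ranged 3.09-fold over the autosomes, from 0.390 on chromosome 18 to 1.21 on chromosome 11, and were 0.150 on the X chromosome. Across the 20 chromosomes the 2 densities had a Pearson correlation of 0.87 and a Spearman correlation of 0.82, and across the 19 autosomes 0.82 and 0.79. These correlations are descriptions. All points come from the same Q7 library on 1 axis and partly on the other, and they share each chromosome's base composition, gene content and mappability. Where the 2 densities parted most was chromosome 8, with 3.01 weak Q7-only regions for each shared one (271 against 90), compared with 2.22 over all chromosomes. Chromosome 16 followed with 2.80 and chromosome 12 with 2.76. Chromosome 5 had the lowest ratio, 1.68 (213 against 127), followed by chromosome 11 with 1.85.

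**Figure D2:**
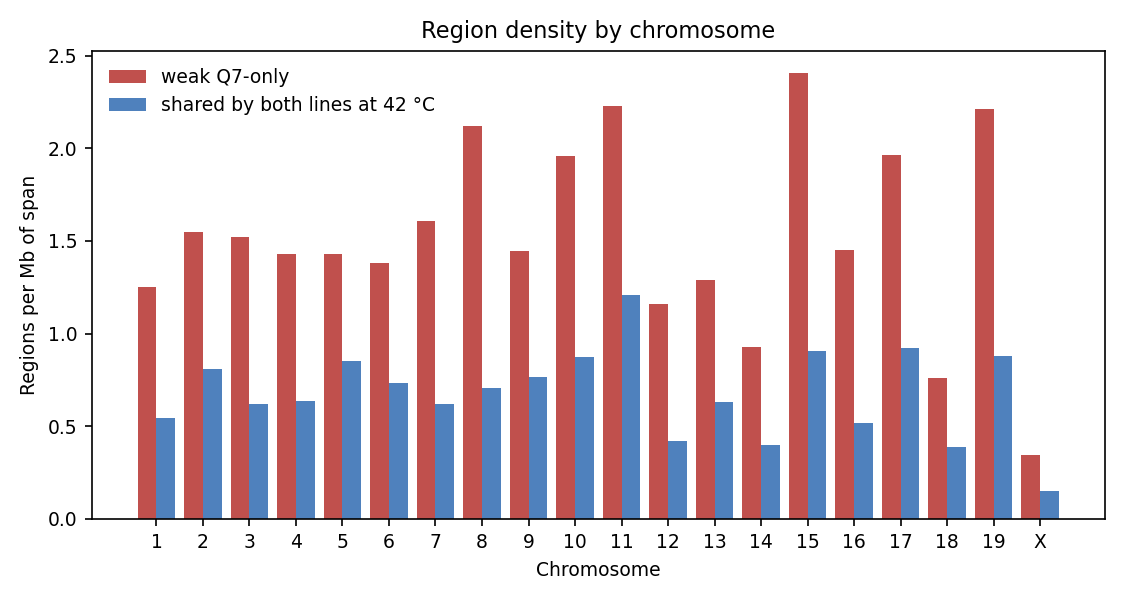
Regions per Mb of span (vertical axis) on each chromosome (horizontal axis) for weak Q7-only regions and for regions shared by both lines at 42 °C, without the stretch of chromosome 13 that was left out. Chromosome 15 is highest for weak Q7-only regions (2.41 per Mb), chromosome 11 for shared regions (1.21), and the X chromosome lowest for both.

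The share of weak Q7-only regions among all regions with a Q7 peak at 42 °C changed little between chromosomes. Over the whole it was 61.5% (60.3 to 62.7, 3740 of 6081 outside the chromosome 13 stretch). On chromosome 8 it was 66.6% (61.9 to 71.0), and this was 1 of 20 chromosomes whose interval lay above the whole. On chromosome 11 it was 56.2% (51.7 to 60.6), the 1 chromosome whose interval lay below. The X chromosome had the highest share, 67.1%, with a wide interval from 56.3 to 76.3 because it held 82 such regions. Chromosome 15, with the highest density, had 64.6% (59.6 to 69.3). Density thus varied several-fold between chromosomes, while this share stayed between 56.2% and 67.1%.

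Along the chromosomes, weak Q7-only regions were more frequent toward the distal end. Mouse chromosomes have their centromere at one end, at the start of the coordinates. With each chromosome cut into 5 equal parts between its outermost regions, the part nearest the centromere held 633 weak Q7-only regions, or 16.9% (15.8 to 18.2). The second held 17.3%, the third 18.4% and the fourth 21.4%, and the most distal held 971, or 26.0% (24.6 to 27.4). Shared regions had the same lean, with 14.9% (13.3 to 16.7) in the first and 28.8% (26.7 to 31.0) in the last part. The chromosome 13 stretch, which is not counted here, lies in the first part of its chromosome. It held 68 shared regions and 5 weak regions listed in Q7 cells only, so leaving it out lowers the first share mainly for shared regions. Strong Q7-only regions had 18.0% (15.2 to 21.1) and 22.8% (19.7 to 26.3). The intervals of weak and strong Q7-only regions overlapped in both parts, and the differences between classes were not tested.

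At the scale of 1 Mb, most windows held few weak Q7-only regions or none, and a small number held many. The span was cut into 2553 windows, of which 1406 or 55.1% (53.1 to 57.0) held at least 1 and 1147 held none. The mean was 1.46 per window with an SD over windows of 2.003, and the median was 1. There were 536 windows with 1 region, 648 with 2 to 4, and 222 with 5 or more. These 222 windows, 8.70% of all, held 1424 regions, or 38.1%. The 334 fullest windows, 13.1% of all, held 50% of the weak Q7-only regions. Shared regions and strong Q7-only regions reached 50% in 9.71% and 6.50% of windows, but they are fewer, and a smaller number of regions fills fewer windows whatever their arrangement.

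A count of 10 or more weak Q7-only regions was reached in 13 windows. The fullest was on chromosome 10 from 80 to 81 Mb with 19, followed by chromosome 2 from 167 to 168 Mb with 15, and by chromosome 19 from 5 to 6 Mb and chromosome 8 from 122 to 123 Mb with 13 each. The remaining 9 held 10 each and lay on chromosome 1 (133 to 134 Mb), chromosome 5 (125 to 126 and 136 to 137 Mb), chromosome 7 (151 to 152 and 152 to 153 Mb), chromosome 8 (129 to 130 Mb), chromosome 10 (59 to 60 Mb), chromosome 16 (92 to 93 Mb) and chromosome 17 (56 to 57 Mb). All 13 windows held at least 1 shared region, but in unequal numbers. The chromosome 5 window from 136 Mb had 11 shared regions beside its 10 weak Q7-only ones, the chromosome 19 window 10 and the chromosome 17 window 9. The chromosome 1 window had 1 shared and no strong Q7-only region, and its weak regions had a median score of 110.97 and a maximum of 164. The 13 regions of the chromosome 8 window from 122 Mb had a median score of 213, well above the median of 130 for all weak Q7-only regions.

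The fullest window, on chromosome 10, also held 10 shared, 3 strong Q7-only and 1 Q111-only region. Its 19 weak Q7-only regions stretched over 817 kb, from 80174331 to 80991027, with a median gap of 31.3 kb between neighbours and gaps from 1.12 to 166 kb. Their scores ran from 91.9 to 295 with a median of 143. The 5 highest scores were at chr10:80730536-80731315 (295), chr10:80403228-80403831 (276), chr10:80760935-80761703 (262), chr10:80398713-80399351 (246) and chr10:80990598-80991027 (236). The tallest of them lay 0.806 kb from a shared region, the closest of the 19. The weakest, chr10:80888082-80888367, scored 91.9. The other 13 started at 80174331, 80219693, 80306785, 80338007, 80363393, 80400468, 80433414, 80465640, 80474887, 80515954, 80564030, 80756569 and 80770140, with scores from 97.2 to 213. All 19 lay within 100 kb of a shared region and 6 within 20 kb.

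Windows with more shared regions held more weak Q7-only regions. In the 1637 windows without a shared region the mean was 0.765 (SD 1.25) and 39.8% (37.4 to 42.2) of windows held at least 1. With 1 shared region the mean was 1.97 (SD 1.86, 494 windows) and the share 73.7% (69.6 to 77.4). With 2 the mean was 3.05 (SD 2.34, 240 windows), with 3 it was 3.79 (SD 2.37, 110 windows), and with 4 or more it was 5.08 (SD 3.72, 72 windows), where 97.2% (90.4 to 99.2) of windows held a weak Q7-only region. The spread within each set of windows was wide, and neighbouring sets overlapped. Strong Q7-only regions rose along the same order, from a mean of 0.137 to 0.722 per window. Across the 2553 windows, the Pearson correlation of the number of weak Q7-only with the number of shared regions was 0.55 and the Spearman correlation 0.52. It was 0.38 and 0.35 with strong Q7-only regions, and 0.19 and 0.19 with Q111-only regions, of which there are few. Windows are neighbours on the same chromosomes and share the Q7 library, so these are descriptions.

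**Figure D3:**
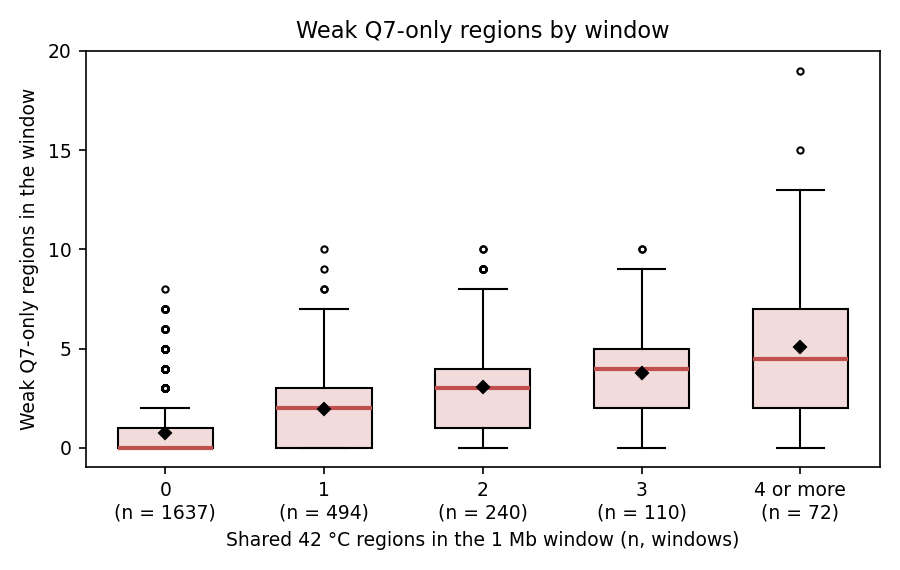
Weak Q7-only regions in a 1 Mb window (vertical axis) by the number of shared 42 °C regions in the same window (horizontal axis). Boxes give quartiles, lines medians, diamonds means, whiskers the farthest value within 1.5 times the box height, and circles the windows beyond; means rise from 0.765 in windows without a shared region to 5.08 in windows with 4 or more.

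Many weak Q7-only regions nonetheless lay in windows with no shared region. There were 1252 of them, or 33.5%, in 651 windows. In 442 windows, weak Q7-only regions were the only HSF1 regions of any of the 4 lists, and these windows held 782 of them. Windows with 5 or more weak Q7-only regions and no shared one numbered 38.

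Distances to the nearest shared region were measured between edges, with 0 for adjoining regions. The median for weak Q7-only regions was 241 kb (224 to 256), with quartiles of 69.3 and 697 kb. The nearest 10% lay within 16.3 kb and the farthest 10% beyond 1.73 Mb. Within 1 kb of a shared region there were 67 weak Q7-only regions, or 1.79% (1.41 to 2.27). There were 151 or 4.04% within 5 kb, 426 or 11.4% (10.4 to 12.4) within 20 kb, 1150 or 30.7% (29.3 to 32.2) within 100 kb, and 3082 or 82.4% (81.2 to 83.6) within 1000 kb. The remaining 658, or 17.6%, were farther away. Most weak Q7-only regions, 2590 or 69.3%, thus lay more than 100 kb from any shared region.

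Median distances to shared regions were of the same order in all classes, while the shares at short and at long distances differed. The median was 279 kb (232 to 327) for the 635 strong Q7-only regions and 206 kb (187 to 228) for the 1686 shared regions, each measured to the nearest other shared region. Weak Q7 peaks that did belong to a shared region (434 regions) had a median of 215 kb (179 to 265), and the 361 Q111-only regions one of 323 kb (232 to 430). The share within 100 kb was 29.6% (26.2 to 33.3) for strong Q7-only, 33.0% (30.8 to 35.3) for shared and 27.4% (23.1 to 32.2) for Q111-only regions, and all 3 intervals overlapped that of weak Q7-only regions. At shorter distances the shares lay further apart. Within 1 kb the share was 4.63% (3.72 to 5.74) for shared regions, compared with 1.79% of weak and 1.26% (0.640 to 2.47) of strong Q7-only regions. Within 5 kb it was 9.13% (7.85 to 10.6) for shared and 7.48% (5.19 to 10.7) for Q111-only regions, compared with 4.04% (3.45 to 4.72) for weak and 4.25% (2.94 to 6.12) for strong Q7-only regions. Within 20 kb it was 15.95% (14.3 to 17.8) for shared and 11.4% (10.4 to 12.4) for weak Q7-only regions, and again the intervals did not overlap. At the far end, 28.0% of Q111-only regions lay beyond 1000 kb of a shared region, compared with 17.6% of weak Q7-only regions, and the intervals of the shares within 1000 kb, 67.2 to 76.4 and 81.2 to 83.6, did not overlap. For shared regions alone, a close pair can count both of its members, so their intervals are too narrow. These differences were not tested, since regions are not replicates.

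**Figure D4:**
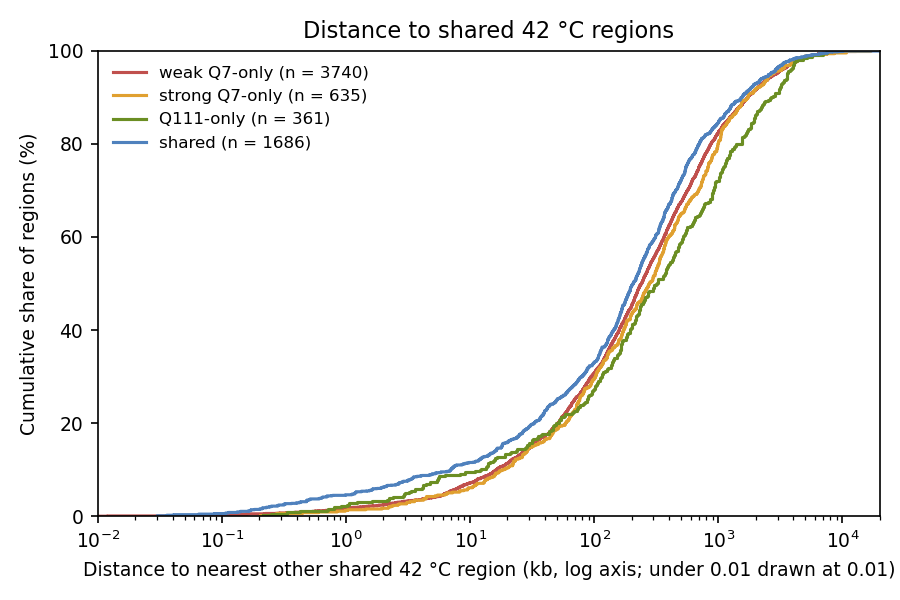
Cumulative share of regions (vertical axis, %) by distance to the nearest other shared 42 °C region (horizontal axis, kb, log scale) for 4 classes. The curves of weak and strong Q7-only regions run close together, with medians of 241 and 279 kb, that of shared regions lies above them below 20 kb, and that of Q111-only regions lies lowest beyond 1000 kb.

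Distance did not order with score among weak Q7-only regions. The median was 206 kb (170 to 256) for scores under 100, 268 kb (228 to 308) from 100 to 120, 252 kb from 120 to 150, 223 kb from 150 to 200, 241 kb from 200 to 250 and 227 kb (176 to 289) from 250 to 300. The share within 100 kb was between 29.1% and 32.3% in all 6 bands.

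The regions nearest to a shared region nearly touched it. The region chr14:79880725-79881148 (score 115) ended 9 bases before a shared region whose Q7 and Q111 peaks at 42 °C scored 632 and 600 in their own lists. That shared region held a peak in both lines at 33 °C too. Regions at chr12:81232719-81233302 (score 182) and at chr4:120041156-120041647 (score 150) lay 12 bases from a shared region. Those at chr4:154654477-154654875 (score 134) and at chr6:89364091-89364658 (score 128) lay 37 and 51 bases away. None of the latter 4 shared regions held a peak at 33 °C. In all 5 cases the shared region's Q7 peak scored several times higher than the weak one beside it, from 632 to 1468. Within 500 bases of a shared region lay 37 weak Q7-only regions, or 0.989% of them.

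The farthest lay in large stretches without any shared region. The regions chr14:100226002-100226614 (score 215) and chr14:102277602-102278061 (score 101) lay 17.1 and 15.1 Mb from the nearest shared region. The other 3 of the 5 farthest were on the X chromosome, namely chrX:54928010-54928471 (score 159, 15.5 Mb away), chrX:53985765-53986060 (score 112, 14.6 Mb) and chrX:53600045-53600589 (score 170, 14.2 Mb). Chromosome 18, the X chromosome and chromosome 14, with the lowest densities of shared regions, had the largest median distances, of 715, 696 and 537 kb. Chromosome 2 had the smallest, 164 kb, followed by chromosome 11 with 175 kb and chromosome 5 with 178 kb.

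The nearest shared region was looked up for each weak Q7-only region, so a shared region counts once for every weak Q7-only region nearest to it. Counted this way, a Q7 score of 300 or more was about as frequent as among all shared regions. A 33 °C peak was less frequent (not tested). For 2808 weak Q7-only regions, or 75.1% (73.7 to 76.4), the nearest shared region had a Q7 score of 300 or more, compared with 74.0% of all 1754 shared regions. It held a 33 °C peak of either line for 414, or 11.1% (10.1 to 12.1), compared with 15.8% (14.2 to 17.6) of all shared regions. Of the 277 shared regions with a 33 °C peak, 46 lie in the chromosome 13 stretch, which holds no weak Q7-only region counted here. Outside it the share was 13.7% (231 of 1686). In total 1250 different shared regions were nearest to at least 1 weak Q7-only region. Seen from the shared regions, 881 of 1686, or 52.3% (49.9 to 54.6), had a weak Q7-only region within 100 kb. This share was 53.5% (50.7 to 56.3) for shared regions with a Q7 score of 300 or more and 48.6% (43.9 to 53.3) for weaker ones. With or without a 33 °C peak it was 51.5% (45.1 to 57.9) and 52.4% (49.8 to 54.9).

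Weak Q7-only regions lay closer to each other than to regions of the other classes. They are also the most numerous class, which alone shortens such distances. The median distance to the next one was 91.8 kb (85.2 to 96.2), and 786 of them, or 21.02% (19.7 to 22.4), had another within 20 kb. These formed 359 runs of regions at most 20 kb apart, of which 301 were pairs, 51 trios, 5 runs of 4, 1 run of 5 and 1 run of 6. The run of 6 lay at chr12:88196574-88240844, over 44.3 kb, with scores from 90.1 to 173 and its nearest shared region 20.9 kb away. The run of 5 lay at chr2:167378330-167420490, over 42.2 kb, with scores from 91.1 to 204, inside the second fullest window. The other 2954 regions, or 79.0%, stood alone at this scale.

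The closest pair, chr15:80147341-80148223 (score 279) and chr15:80148230-80148796 (score 112), lay 6 bases apart. The pairs chr14:32480990-32481549 with chr14:32481573-32481984 and chr17:87606342-87606748 with chr17:87606772-87607349 were 23 bases apart. The pairs chr12:72115833-72116287 with chr12:72116318-72116765 and chr11:51687674-51688366 with chr11:51688401-51688987 were 30 and 34 bases apart. In each pair both intervals were separate peaks of the deposited list. Within 500 bases of another weak Q7-only region lay 85 regions, or 2.27% (1.84 to 2.80).

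Read along the chromosome, the regions next to a weak Q7-only region were a near copy of the whole set. Of 7461 neighbours on either side, 58.0% (56.9 to 59.1) were weak Q7-only regions, which made up 56.9% of all regions. Shared regions were 25.6% (24.6 to 26.6) of neighbours and 26.7% of all regions, strong Q7-only regions 10.0% (9.36 to 10.7) and 9.65%, and Q111-only regions 5.17% (4.69 to 5.70) and 5.58%. Strong Q7-only and Q111-only regions were next to their own kind somewhat more often than their share, with 13.1% (11.4 to 15.1) against 9.65% and 9.43% (7.51 to 11.8) against 5.58%. Neighbours of the same class are counted from both sides, so the intervals of own-kind shares are too narrow. The differences from the shares of all regions were not tested. Regions with a 33 °C peak were far away in general, at a median of 2359 kb, as few of them exist, and 27 weak Q7-only regions lay within 5 kb of one.

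Weak Q7-only regions had a median width of 446 bases (439 to 450) and quartiles of 369 and 533. Strong Q7-only regions had a median of 597 bases (577 to 614), and shared regions with a Q7 score under 300 one of 531 (519 to 551). A shared region is merged from peaks of both lines, whereas a weak Q7-only region is a lone peak. The widths of shared and weak Q7-only regions are therefore unlike measures, and only the comparison of Q7 peaks below is peak against peak. Q111-only regions were narrower than weak Q7-only regions, with a median of 365 bases (354 to 377). Width and score come from the same peak, so the difference between weak and strong Q7-only regions is a description of the choice. Within the weak Q7-only set, median width grew from 381 bases (376 to 391) under a score of 100 to 441.5 from 120 to 150 and 541 (513 to 568) from 250 to 300. Q7 peaks of the same score that lay in shared regions were wider in some bands and narrower in others. From 120 to 150 their median was 465 bases (437 to 503) against 441.5 (432 to 454), from 150 to 200 it was 498.5 (472 to 522) against 473 (460 to 482), and from 250 to 300 it was 563 (524 to 607) against 541. From 100 to 120 it was 401 (367 to 435) against 415 (408 to 424), and from 200 to 250 it was 493 (458 to 523) against 522 (508 to 540). These intervals overlapped. Under 100 the 21 shared peaks had a median of 441 bases (397 to 554), and this interval lay above that of the weak Q7-only regions. The widest weak Q7-only regions lay at chr11:52146138-52147525 (1388 bases, score 211), at chr9:54650384-54651704 (1321 bases, score 189) and at chr13:6058965-6060238 (1274 bases, score 102). The second of these lay 331 bases from a shared region. The narrowest were at chr11:86778213-86778409 (197 bases), chr19:3724895-3725094 (200 bases) and chr4:62068737-62068940 (204 bases).

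Width also differed between chromosomes, and it mostly went with density. Chromosome 15, the densest, had the widest weak Q7-only regions, with a median of 499 bases (469 to 531). Chromosome 19 followed with 477 (437 to 497), chromosome 10 with 476 (447 to 516) and chromosome 8 with 474 (452 to 497). Not all dense chromosomes had wide regions. The median was 444 bases (426 to 463) on chromosome 11, at 2.23 per Mb, and 435 (409 to 464) on chromosome 17, at 1.97. Chromosome 18 had the narrowest, 364 bases (345 to 413), and the X chromosome 398 (364 to 435). The intervals of chromosomes 15 and 18 did not overlap. Across the 20 chromosomes, median width and density had a Pearson correlation of 0.80 and a Spearman correlation of 0.74. Because width depends on score, the comparison was repeated on the weak Q7-only regions scored from 100 to 150. Chromosome 15 was again highest with 471.5 bases (457 to 531, 114 regions) and chromosome 18 lowest with 354 (329 to 408, 38 regions), and the correlations were 0.75 and 0.74. Shared regions, whose widths are those of merged peaks of both lines, can be compared among chromosomes but not with weak Q7-only regions. They were also wide on chromosomes 19 and 15, at 724 (650 to 843) and 709.5 bases (644 to 774), and narrowest on chromosome 18, at 526 (465 to 608). Median score had a weaker relation to density, with correlations of 0.48 and 0.29. These comparisons were chosen after the values had been seen, and are descriptions of 1 library.

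**Figure D5:**
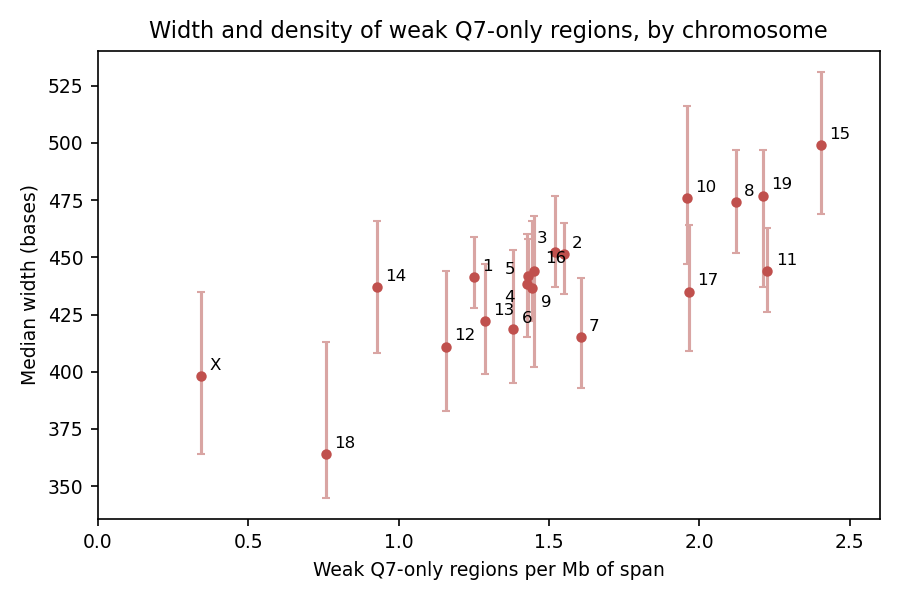
Median width of weak Q7-only regions (vertical axis, bases, with 95% order-statistic intervals, axis not starting at 0) against their number per Mb of span (horizontal axis), 1 point per chromosome. Chromosome 15 lies at the upper right with 499 bases and 2.41 per Mb, and chromosome 18 has the lowest width, 364 bases.

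The same lean appeared among windows. Weak Q7-only regions that were alone in their 1 Mb window had a median width of 424.5 bases (408 to 435, 536 regions), those in windows with 5 or more of them 459 (452 to 468, 1424 regions). In windows without a shared region the median was 429 (423 to 438), and with 4 or more shared regions it was 476 (461 to 492). Median scores were 128 (121 to 134) in windows with 1 and 132 (129 to 136) in windows with 5 or more weak Q7-only regions. They were 128 (125 to 132) in windows without a shared region and 139 (130 to 148) in windows with 4 or more, so score moved in the same direction as width in both splits, with overlapping intervals. The part of score in the width differences between windows was not tested.

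Distances to any region with a Q111 peak at 42 °C, shared or Q111-only, were close to those to shared regions, which make up most of that set. By the rule none overlapped, and 40 weak Q7-only regions, or 1.07% (0.786 to 1.45), lay within 500 bases of a region with a Q111 peak at 42 °C. Within 1 kb this was 70, or 1.87% (1.48 to 2.36), within 20 kb 469, or 12.5% (11.5 to 13.6), within 100 kb 1262, or 33.7% (32.2 to 35.3), and within 1000 kb 3236, or 86.5% (85.4 to 87.6). The lists give no signal below their limit, so weak binding in Q111 cells at the remaining sites was not detectable from them and cannot be called absent.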

How the data were processed

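HSF1 ChIP-seq peaks were analysed in 4 libraries of mouse striatal cells, 1 per cell line and temperature. The deposited lists give chromosome, start, end, name and score of each peak. Per the submitters' processing notes the authors used MACS 1.4.0rc2 and mm9. The score deposited by the authors was taken to be the scaled negative logarithm of the peak's p-value that MACS writes, which is an inference. The aligner, filters and background library were not given in the sources used here, nor were read totals, so depth is unknown.

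Peaks sharing at least 1 base were merged across the 4 lists. Regions with a Q7 and a Q111 peak at 42 °C are called shared, whatever they hold at 33 °C. Coordinates are on mm9, counted from 1. Shares carry 95% Wilson intervals and medians 95% order-statistic intervals. No test was run, since each group is 1 library and the rule used the lists and scores. The members and lists were chosen with earlier results of these data known. Regions were named by rank: the 5 highest and lowest scores, 5 just outside the limit, 3 widest and narrowest, 5 nearest to and farthest from a shared region, 5 closest pairs, and the 5 fullest windows. The other windows with 10 or more, and the runs, were named after their values were seen. Computation used scipy 1.17.1, numpy 2.4.6 and pandas 2.3.3 under Python 3.11.15, with matplotlib 3.10.9 for plots. Code was tested on simulated data, and the 6577 regions and 3740 distances were equal to those from bedtools 2.31.1. The reference tables at hand are on another build, so genes, heat shock elements and sequences of the regions were not analysed here.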

Additional observations from a re-analysis of the deposited data

How the results depend on the processing

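Of 56 planned repeats of the count, shares, densities, distances and widths, 34 gave a value inside the interval of the reported one (for the count, within 1.5 times) and 22 fell outside it. None of these results has a direction that could turn. Merging peaks up to 500 bases apart, or keeping the chromosome 13 stretch in, moved none of the values, and neither did measuring between centres. With peaks of at least 100 in score, weak Q7-only regions were 58.8% of Q7 regions at 42 °C, at 1.28 per Mb and in 52.0% of 1 Mb windows, with a median width of 456.5 bases, a median distance of 268 kb to shared regions and 29.2% within 100 kb. With a score limit of 200 they were 50.3% of Q7 regions, at 1.209 per Mb, in 51.0% of windows and 429 bases wide. With a limit of 400 they were 65.9% of Q7 regions, at 1.58 per Mb and 451 bases wide. These shifts follow from which scores are let in. Autosomes alone gave 1.55 per Mb and 57.3% of windows. Leaving out regions with 3 or more others within 20 kb gave a median distance of 264 kb and 28.1% within 100 kb. Shared regions without a 33 °C peak, being fewer, lay a median of 279.5 kb away, with 28.0% within 100 kb. By construction, a limit of 20 kb took in 11.4%, windows that hold a region as the denominator gave 2.23 per Mb, and 5 Mb windows were occupied in 88.5%. Depth is unknown and no library is replicated.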
